A study of Mus musculus with 6 samples.

Results

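Binding of the transcription factor E2F1 was examined at 10 genes of mitosis: the kinases Aurka, Aurkb, Plk1, Plk4, Ttk and Bub1, the chromosomal passenger proteins Incenp and Birc5, and the checkpoint proteins Bub1b and Mad2l1. The genes were chosen by name, with earlier results of these data known. Every peak inside or within 1000 bp of the gene on the mouse build GRCm38 (mm10) was assigned to its gene, so that 10 of 21900 protein-coding genes are described. The peaks come from chromatin immunoprecipitation and sequencing (ChIP-seq) in NIH/3T3 cells, an established mouse fibroblast line. The labels give the genotype of the E2F1 group as Dox-inducible E2F1, in which doxycycline induces E2F1, and that of the comparison group as Dox-inducible EV, an abbreviation they do not spell out. Both groups were kept in 0.25% serum for 48 hours and then given doxycycline for 12 hours, so the drug and the starvation are common to all libraries. The dose is left out here, because the treatment protocol and the names inside the peak lists differ on it. Each group had 2 libraries with a peak list each, and 2 input samples of the EV group were not used here. The antibody, and whether the cells were 1 clone or a mixed population, are not given in the sources used here, and nothing says that the replicates were separate cultures, so their spread may be technical.

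E2F1 is best known for switching on genes of the G1/S transition. The genes described here act later. Aurkb, Incenp and Birc5 (survivin) belong with Cdca8 to the chromosomal passenger complex, which corrects faulty attachments of chromosomes to the spindle. Aurka and Plk1 drive spindle assembly and mitotic entry, and Plk4 starts centriole duplication. Ttk (Mps1), Bub1, Bub1b (BubR1) and Mad2l1 (Mad2) carry the spindle checkpoint, which delays anaphase until all chromosomes are attached. Promoters of many late cell cycle genes hold a cell cycle genes homology region (CHR) and CCAAT boxes, through which the MuvB complex and NF-Y act, while E2F proteins bind GC-rich elements.

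The lists held 7836 and 8027 peaks in E2F1 replicates 1 and 2, and 70 and 358 in EV replicates 1 and 2. Depth is known only through the genome-wide background, the lowest background solved from the peaks of a list, which was 1.85 and 1.86 reads in the E2F1 libraries and 2.20 and 1.18 in the EV libraries. All lists stop at a p-value of about 1e-10. At its genome-wide background a site needed a fold enrichment of at least 5.97, 5.95, 5.63 and 6.43, in the same order of lists, to be listed. EV replicate 1 had only 70 peaks, with a median background of 12.5 reads. Its 2.20 may therefore lie above its true genome-wide background, and 5.63 below its true limit.

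All 10 genes had an E2F1 peak in at least 1 E2F1 library, and none had a peak in either EV library. E2F1 replicate 1 listed a peak at 9 genes and E2F1 replicate 2 at 10, a mean of 9.5 ± 0.707 genes (SD, n = 2) against 0 in both EV libraries. The groups did not overlap, and an exact permutation test over the 4 libraries (two-sided) returned p = 0.333, which is as low as a design of this size can go. Of all protein-coding genes, 36.9% had a peak by the same rule in E2F1 replicate 1, 38.2% in replicate 2 and 34.4% in both, while 0.0365% and 0.406% had one in the EV lists and 0.434% in either. A peak in both E2F1 lists and in neither EV list was found at 34.3% of them. The 9 genes listed in both E2F1 libraries are thus 90% of this group, beside the 34.4%. The count of 0 of 10 in the EV lists is near their background of 0.434% and says nothing particular to these genes. The nearest EV peak lay 114 kb from Mad2l1 and 150 kb from Aurka, and at distances from 372 kb, at Plk1, to 23400 kb, at Bub1, from the other genes. Of the E2F1 peaks at these genes, 8 of 9 and 8 of 10 had a fold above 6.43, the higher of the limits of the EV lists at their solved genome-wide background. Weaker EV signal would not be listed.

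**Figure D1:**
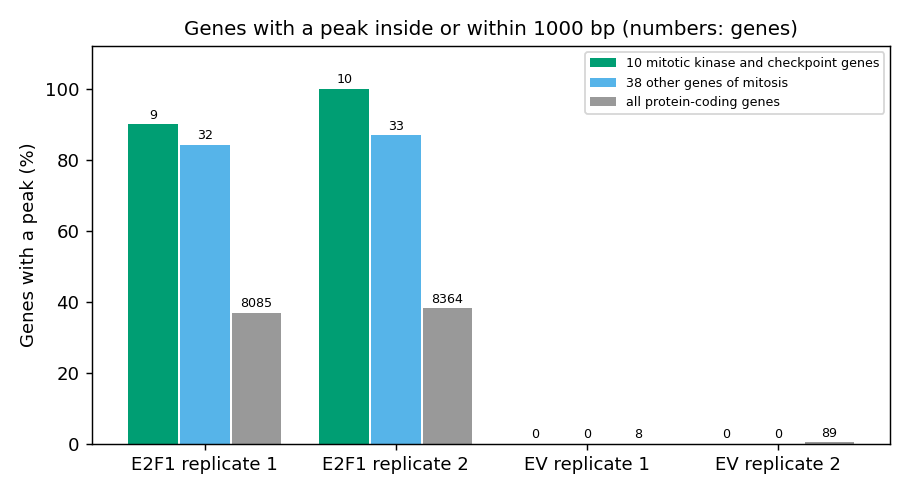
Share of genes with a peak inside or within 1000 bp of the gene in each of the 4 peak lists (bars, in percent, with the number of genes above) for the 10 mitotic kinase and checkpoint genes, 38 other genes of mitosis and all protein-coding genes. The 10 genes reach 90% and 100% in the E2F1 lists, where all protein-coding genes reach 36.9% and 38.2%, and 0 in both EV lists.

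Each gene had exactly 1 peak per E2F1 list, except Bub1b, which had none in E2F1 replicate 1. All 19 peaks reached into the gene they were assigned to, so the 1000 bp margin decided no call. The nearest peak outside the margin lay 5.26 kb away, at Aurkb in E2F1 replicate 2, with a fold of 7.15.

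The passenger complex genes had the highest mean folds of the group, although Mad2l1 was above Birc5 in replicate 1 and above Aurkb in replicate 2. Incenp, the scaffold of the complex, had folds of 27.4 in E2F1 replicate 1 and 40.1 in replicate 2, a mean of 33.8 ± 8.98 (SD, n = 2), and ranked 363 of 7836 and 393 of 8027. Both libraries thus placed it in the highest 5% of peaks, at 4.63% and 4.90% from the top. Its peak spanned chr19:9898264-9899987 in replicate 1 and chr19:9898808-9900251 in replicate 2, over the boundary of Incenp and towards Gm50340, a lncRNA gene 188 bp away. The summits lay 154 bp and 71 bp inside Incenp and outside Gm50340.

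Birc5, which holds the complex at the centromere, had folds of 17.8 and 33.4, at chr11:117848506-117850309 and chr11:117848599-117849697. It stood at 15.3% and 8.04% from the top of the lists, with summits 63 bp and 41 bp after the annotated start. Its peaks were among the widest of the group, 1804 bp and 1099 bp, against list medians of 938 bp and 814 bp. The bases before the start are shown because both peaks cover all of them and no other annotated gene lies within 1000 bp of the peaks. The stretch is chr11:117848987-117849236 on the plus strand of GRCm38.p6, from RefSeq, with the hexamer cores of E2F elements (defined below) in capitals.
Birc5: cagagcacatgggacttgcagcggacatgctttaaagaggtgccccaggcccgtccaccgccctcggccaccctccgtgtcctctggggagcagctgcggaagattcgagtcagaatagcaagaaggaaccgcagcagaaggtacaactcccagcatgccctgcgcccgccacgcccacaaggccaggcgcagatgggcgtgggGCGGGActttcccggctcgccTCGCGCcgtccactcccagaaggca

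Aurkb, the kinase of the complex, had folds of 32.1 and 17.5, at chr11:69045600-69046486 and chr11:69045570-69046204, and its order between the replicates was the reverse of that of Incenp and Birc5. It stood at 2.86% from the top in replicate 1 and at 28.9% in replicate 2. The summits were 6 bp apart, 190 bp and 184 bp inside the gene. The read pileup at the summit was higher in replicate 2, 118 reads against 93, and the local background by which the fold is divided was also higher, 5.81 reads against 1.93. By pileup Aurkb stood at 15.6% and 9.33% from the top. The fold and the pileup therefore order the libraries in opposite ways at Aurkb, as they do at Aurka, Plk4, Ttk and Bub1. They order them alike at Incenp, Birc5 and Plk1, and the pileups are equal at Mad2l1.

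Aurka and Plk1 had weaker peaks. Aurka had folds of 5.34 and 7.78, and with pileups of 27 and 24 reads it stood at 89.5% and 71.5% from the top of the lists by fold. Its peaks, chr2:172370327-172371199 and chr2:172370641-172371186, lay where Aurka and Cstf1, a gene for a subunit of the mRNA cleavage stimulation factor, share 242 bp of their spans. The summits lay 150 bp and 316 bp inside Cstf1, and at positions −225 and −391 bp from the Aurka start in the promoter table, where negative positions are upstream. That start lies inside the Aurka span, and from the boundary of the span the summits were 91 bp inside and 75 bp outside. By the start in the promoter table, Aurka was the only gene of the 8 with summits upstream in both lists. The peak cannot be assigned to Aurka rather than Cstf1.

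Plk1 had folds of 7.16 and 12.0, below the list median of 9.19 in replicate 1 and above the 11.3 of replicate 2. Its peaks spanned chr7:122158828-122160374 and chr7:122158987-122159797, with summits 157 bp after the start and on its first base. Both peaks cover the stretch before the start, chr7:122159185-122159434 on the plus strand of GRCm38.p6, from RefSeq. It is shown beside that of Birc5 as a promoter with 1 hexamer core and a CCAAT box, in capitals in this order, under a weaker peak.
Plk1: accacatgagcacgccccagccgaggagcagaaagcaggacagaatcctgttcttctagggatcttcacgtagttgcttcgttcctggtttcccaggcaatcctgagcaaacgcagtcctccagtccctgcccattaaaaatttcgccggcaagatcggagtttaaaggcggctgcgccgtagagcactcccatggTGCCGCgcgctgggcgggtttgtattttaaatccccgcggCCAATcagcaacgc

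Plk4 was the most even of the 9 genes with both values, with folds of 14.7 and 15.4, a mean of 15.1 ± 0.488 (SD, n = 2). The peaks, chr3:40800001-40801035 and chr3:40799998-40800966, had summits 3 bp apart, 275 bp and 272 bp after the start, and they began 50 bp and 47 bp inside the gene. The local background was high here, 6.94 and 5.42 reads, and by pileup, 116 and 98 reads, Plk4 stood at 9.07% and 14.1% from the top.

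**Figure D2:**
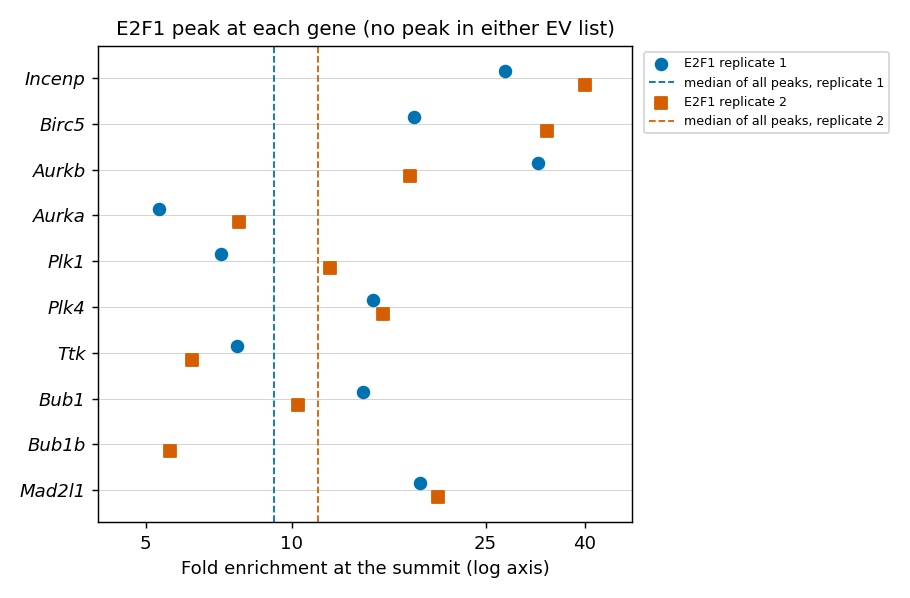
Fold enrichment at the summit of the peak at each gene (log axis) in E2F1 replicate 1 (circles) and replicate 2 (squares), with the median of all peaks of each list as a dashed line. Incenp, Birc5, Aurkb, Plk4 and Mad2l1 lie above the median of the list in both libraries, and Aurka and Ttk lie below it in both. Bub1b has no point in replicate 1.

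Among the checkpoint genes, Mad2l1 had the strongest peak and Bub1b the weakest. Mad2l1, which inhibits the anaphase-promoting complex, had folds of 18.3 and 20.0 (19.2 ± 1.18, SD, n = 2) at chr6:66535380-66536027 and chr6:66535039-66536013. Both summits had a pileup of 81 reads. They lay farthest into the gene of all 10, at 387 bp and 339 bp.

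Bub1, a kinase that gathers checkpoint proteins at the kinetochore, had folds of 14.0 and 10.3 at chr2:127831396-127831892 and chr2:127831461-127831951. These were above the list median in replicate 1 and below it in replicate 2, although the pileup was 39 reads in replicate 1 and 45 in replicate 2. The local background was 1.85 reads in replicate 1, equal to its genome-wide background, and 3.48 in replicate 2.

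Ttk, the kinase that starts checkpoint signalling, had folds of 7.72 and 6.24 at chr9:83834408-83835087 and chr9:83834383-83835031, with pileups of 25 and 27 reads. Both were below the median of their lists.

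Bub1b, a checkpoint protein that blocks Cdc20, was listed only in E2F1 replicate 2, at chr2:118598172-118598652. Its fold was 5.61, from 22 reads over a background of 3.10, and its −log10 p of 12.4 was the lowest of the group, beside the filter at 10. It ranked 7279 of 8027. In E2F1 replicate 1 the nearest listed peak was 48.6 kb away. Sites short of the filter are not listed, so whether Bub1b had signal in replicate 1 cannot be read from these data.

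All 9 in replicate 1 were overlapped by the peak of the same gene in replicate 2, and 9 of the 10 in replicate 2 by one in replicate 1, beside 90.2% (Wilson 95% interval 89.5 to 90.9, counting error only) and 88.1% (87.4 to 88.8) of all peaks. The summits of the 9 genes were 3 to 166 bp apart, with a median of 48 bp, where 6882 peaks that overlap one-to-one had a median of 54 bp. The ratio of the fold in replicate 2 to that in replicate 1 ran from 0.545 at Aurkb to 1.87 at Birc5, with a median of 1.09, and the median of the 6882 peaks was 1.26 (interquartile range 0.943 to 1.73). The order of neighbouring genes by fold therefore does not hold beyond the spread of the replicates. Aurkb was above Incenp in replicate 1 and below Birc5 in replicate 2, and Ttk was above Plk1 in replicate 1 and below Aurka in replicate 2. In both replicates, Incenp, Birc5, Aurkb, Mad2l1 and Plk4 had higher folds than Bub1, Plk1, Ttk, Aurka and, where listed, Bub1b.

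As a group, the genes had a median fold of 14.7 in E2F1 replicate 1 and 13.7 in replicate 2, beside 9.19 and 11.3 for all peaks and 9.35 and 11.5 for peaks at protein-coding genes. Above the median of the list were 6 of 9 and 6 of 10. Their median pileups were 65 and 63 reads, beside 47 and 45 for all peaks, and their median widths 887 bp and 730 bp, beside 938 bp and 814 bp. A score of at least 312, the median of all E2F1 peaks, was reached by 6 genes in replicate 1 and 5 in replicate 2, with Aurkb, Incenp, Birc5, Plk4 and Mad2l1 in both and Bub1 in replicate 1 only. Of all protein-coding genes, 16.9% had such a peak in both lists.

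**Figure D3:**
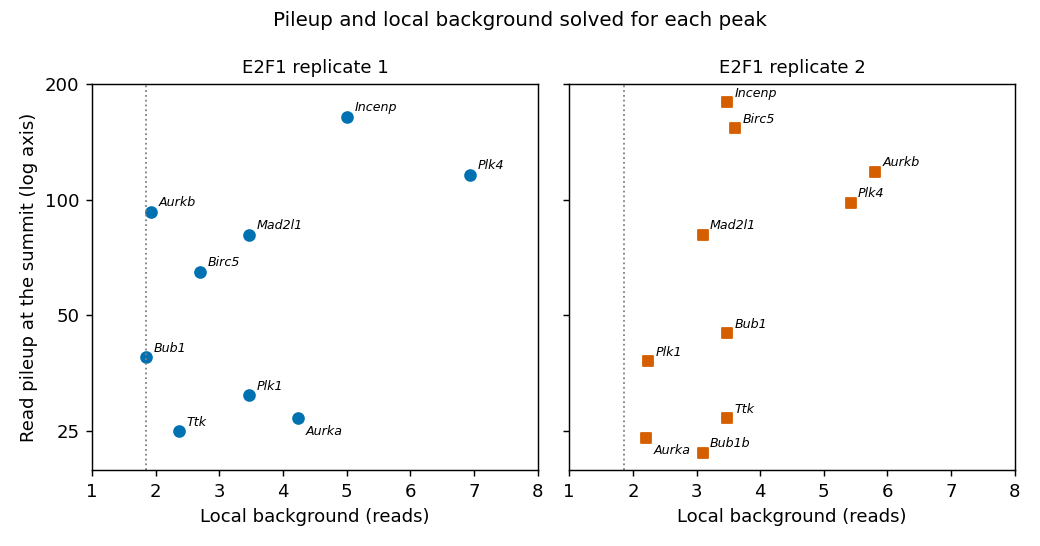
Read pileup at the summit (log axis) against the local background, both solved from the deposited fold and p-value, for the peak at each gene in E2F1 replicate 1 (left) and replicate 2 (right). The dotted line is the genome-wide background, 1.85 and 1.86 reads. Pileups run from 25 to 164 reads in replicate 1 and from 22 to 179 in replicate 2, and Aurkb moves from a background of 1.93 to 5.81 reads.

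All peaks lay at a single end of the gene. Summits were 63 to 387 bp inside the nearer gene boundary in replicate 1 and from 75 bp outside, at Aurka, to 339 bp inside in replicate 2. The promoter table gives the start and strand of 8 genes, all but Aurkb and Incenp, and for these 8 the bound end was the 5′ end. The median summit lay 157 bp after the start in replicate 1 (7 genes) and 93.5 bp after it in replicate 2 (8 genes). Across 8074 and 8293 annotated starts with a summit within 1000 bp, the medians were 118 bp and 46 bp after the start.

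**Figure D4:**
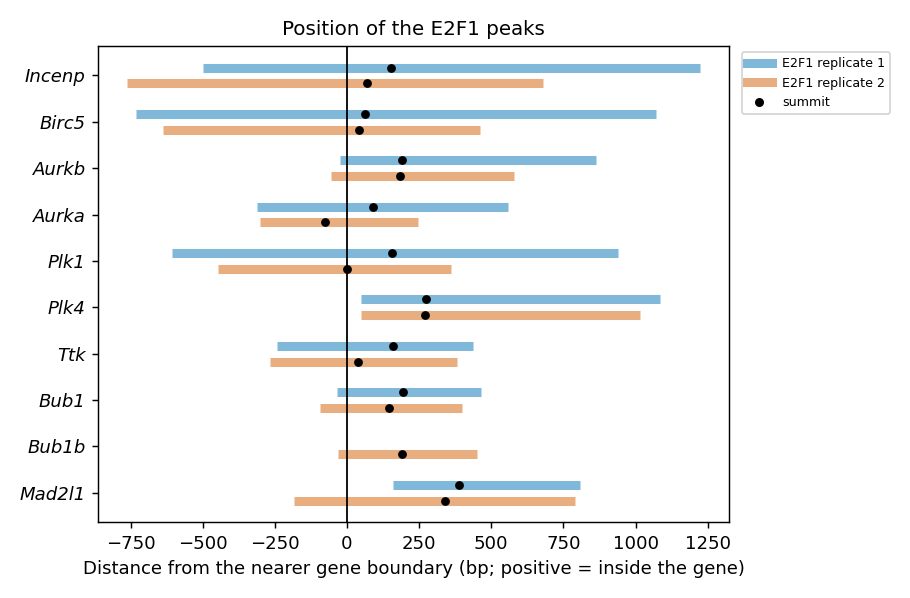
Extent of each peak (bars) and its summit (black points) from the nearer boundary of the gene, in bp with positive values inside the gene, in E2F1 replicates 1 and 2. Bars cross or lie close to the boundary in every case. The Plk4 peaks begin 50 bp and 47 bp inside the gene, and the summit of Aurka in replicate 2 lies 75 bp outside.

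The promoter sequences of the 8 genes, from 250 bases before to 50 after the start, were searched on both strands. E2F elements were taken as the letters TTCCCGC, the letters TTCGCGC, the letters TTGCCGC or the letters TTGGCGC, the CHR as TTTGAA or TTCGAA, and the CCAAT box as CCAAT. Only Plk4 held an E2F heptamer, beside 9.57% of all 32851 promoter windows and 23.6% of the 6993 that a peak overlaps in both E2F1 lists. With the first T left out (TCCCGC for the first of them, TCGCGC for the next, then TGCCGC and finally TGGCGC), a choice made after the heptamers had been counted, Birc5, Plk1, Plk4, Ttk, Bub1 and Bub1b held a core, 6 of 8 genes, beside 36.3% of all windows and 77.8% of those under a peak in both lists. The windows of Plk4, Mad2l1 and Bub1b were not overlapped by a peak in replicate 1 and so are not of that last kind. Of the 5 genes whose windows were, 0 held a heptamer and 4 held a core. The cores of Birc5, Plk1 and Ttk lay under the peak in both lists. At Bub1 the peak covered 0 of its 2 cores in replicate 1 and 1 in replicate 2. Mad2l1 and Aurka held none of these letters in the window. The summits of Mad2l1, at 387 bp and 339 bp after the start, and of Plk4, at 275 bp and 272 bp, lie beyond the end of the window, so the bases under them were not read. The heptamer of Plk4 begins at position −120 from the start, and its peaks begin after the start, so it lies outside both. The stretch, chr3:40799701-40799950 on the plus strand of GRCm38.p6 from RefSeq, is shown with the heptamer, read on the opposite strand, in capitals.
Plk4: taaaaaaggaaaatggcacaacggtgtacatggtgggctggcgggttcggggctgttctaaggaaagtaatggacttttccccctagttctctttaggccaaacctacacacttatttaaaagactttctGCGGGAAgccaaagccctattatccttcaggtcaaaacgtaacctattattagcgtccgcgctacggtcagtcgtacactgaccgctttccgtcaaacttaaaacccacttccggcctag

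CHR letters were found at 5 of the 8 genes, Aurka, Plk1, Ttk, Bub1 and Bub1b, and all 5 also held CCAAT. Both elements occur together in 7.52% of all promoter windows, CHR letters in 19.2% and CCAAT in 37.4%. Of the other genes of mitosis described below, 33 had a promoter sequence. Among these 33, 16 held CHR letters and 20 held CCAAT in at least 1 window, so these letters are not particular to the genes described here. Birc5, Plk4 and Mad2l1 held neither. In each of the 5 genes a CHR match begins within 41 bases after the start. These matches are shown in capitals with the bases around them, 30 in all for each gene. From RefSeq on GRCm38.p6 they are chr2:172370521-172370550 (minus strand), chr7:122159453-122159482 (plus), chr9:83834684-83834713 (plus, with the match on the opposite strand), chr2:127831828-127831857 (minus) and chr2:118598231-118598260 (plus).
Aurka: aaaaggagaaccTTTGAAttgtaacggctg
Plk1: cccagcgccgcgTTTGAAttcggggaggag
Ttk: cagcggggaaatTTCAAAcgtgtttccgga
Bub1: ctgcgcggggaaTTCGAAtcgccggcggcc
Bub1b: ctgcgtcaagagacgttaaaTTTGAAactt

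Among the 8 genes with a promoter sequence, those with CHR letters had the weaker peaks. Their folds were 5.34 to 14.0 in replicate 1 (4 genes with a peak) and 5.61 to 12.0 in replicate 2 (5 genes), and those of Birc5, Plk4 and Mad2l1 were 14.7 to 18.3 and 15.4 to 33.4. Pileups were 25 to 39 and 22 to 45 reads in the genes with CHR letters, and 65 to 116 and 81 to 153 in the others. The ranges did not overlap in either replicate. This split of 8 genes was seen in the data and is given without a test. The window is not the peak. In replicate 2 the Aurka peak ended at position −71, short of the CHR match. Neither Aurka peak can be assigned to Aurka rather than Cstf1. The Plk4 peaks covered 0 and 3 bases of the window, and the Mad2l1 peak 0 in replicate 1. Incenp and Aurkb, without a promoter sequence, are not in the split. In replicate 1 it rests on 14.0 at Bub1 against 14.7 at Plk4. In the wider sets, CHR letters were found in 11.1% of the promoter windows under a peak in both lists and in 21.4% of the other windows, while the folds did not show the split. Over all promoter windows under a peak in both lists, the median folds with and without CHR letters were 10.6 and 10.3 in replicate 1, and 13.1 and 13.6 in replicate 2. Among the other genes of mitosis described next, the order was the opposite, with median folds of 13.1 with CHR letters and 9.98 without in replicate 1, and 16.4 and 14.7 in replicate 2.

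**Figure D5:**
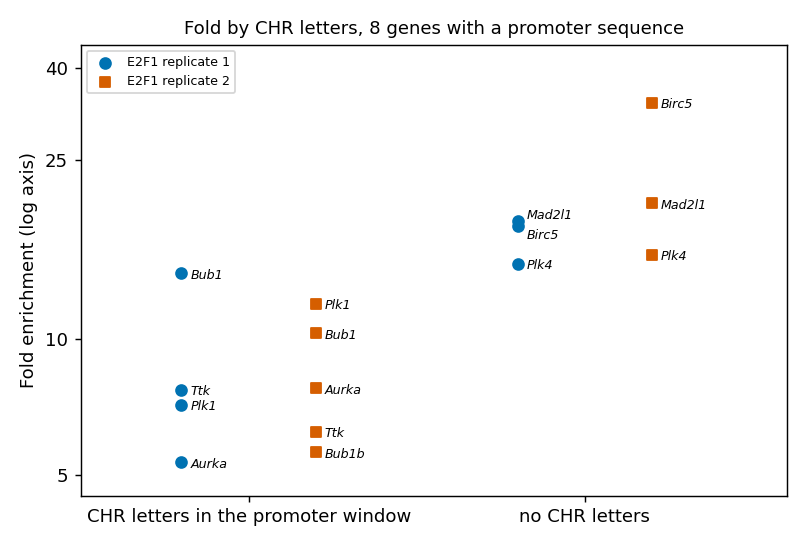
Fold enrichment (log axis) in E2F1 replicates 1 (circles) and 2 (squares) for the 8 genes with a promoter sequence, split by whether the window from 250 bases before to 50 after the start holds CHR letters. The folds with CHR letters reach at most 14.0 and 12.0, and those without begin at 14.7 and 15.4.

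A list of 38 other genes of the same processes gave a similar picture. A peak was listed at 32 in E2F1 replicate 1 and 33 in replicate 2, a mean of 32.5 ± 0.707 (SD, n = 2), against 0 in both EV libraries (exact two-sided permutation p = 0.333, the smallest possible). The 32 with a peak in both E2F1 lists are 84.2% of the list, again beside 34.4% of all protein-coding genes. Their median folds, over 32 and 33 genes with the strongest peak of each, were 10.9 and 14.7. Cdca8, the fourth subunit of the passenger complex, had folds of 11.3 and 13.1 at a peak within 1000 bp of the gene 9930104L06Rik as well, below those of Incenp, Birc5 and Aurkb in both lists. All 11 of the mitotic entry and other mitotic kinases, all 3 centromere protection genes and all 4 partners of Plk4 in centriole duplication had peaks in both lists, as did 9 of 12 checkpoint genes, 3 of 4 relatives or activators of the Aurora kinases and 1 of 3 Polo-like kinases.

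The highest mean folds among these 38 were at Tpr, a nuclear pore protein that anchors checkpoint proteins (19.4 and 42.7, at peaks within 1000 bp of Odr4 as well), Stil, a centriole duplication factor that binds Plk4 (13.0 and 48.6), and Cdk1, the kinase of mitotic entry (19.9 and 38.2). These genes were also the highest in replicate 2. In replicate 1, however, Knl1 (24.0) and Cdca5 (21.5) were above all of them, and further genes were above Stil. The lowest were at Nek9, an upstream activator of Nek6 and Nek7 (3.69 and 6.24), Mad1l1, the partner of Mad2l1 (7.83 and 4.59, at peaks within 1000 bp of Nudt1 as well), and Spdl1, which brings dynein to kinetochores (7.82 and 7.13). Nek9, Mad1l1 and Spdl1 were also the lowest in replicate 2, but in replicate 1 further genes were below Mad1l1 and Spdl1. The summit at Mad1l1 in replicate 1 lay outside the gene, at −235 bp from its boundary. Bub3, the binding partner of Bub1 and Bub1b, was like Bub1b listed in replicate 2 only, with a fold of 11.4. No E2F1 peak was listed at Cdc20, the activator of the anaphase-promoting complex that the checkpoint inhibits, at Mad2l1bp, which helps to silence the checkpoint, or at Aurkc, Plk2 and Plk5, relatives of the Aurora and Polo-like kinases. The promoter window of Cdc20 held CHR letters at position −18 from the start and CCAAT at −53 and −8. That of Cdk1 held CHR letters at −71 and −15, 3 CCAAT matches and 2 E2F heptamers, at −178 and −130. A match of letters is a description and not a binding site, and a window without a match says nothing of the factor.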

How the data were processed

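The 4 peak lists have 10 columns in the narrowPeak layout, 1 list per library. The fold that the authors deposited per peak is the ratio of summit pileup to local background. Significance was deposited as −log10 values, of the p-value in 1 column and of the q-value in the next. The authors' score is 10 times the latter, rounded down, for at least 99.78% of peaks per list. Per the submitters' processing notes, FastQC, Trimmomatic, Bowtie2, MACS2 and ChIPseeker were used with build mm10. Versions, filters and the control of each list are not given in the sources used here, and the protocols in the labels describe RNA. Folds and scores are the authors' own values, and ranks were computed from them within each list. Means and ratios of folds across the E2F1 replicates describe their spread, since each list has its own background.

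Pileup and background were solved from fold, with a pseudocount of 1, and the Poisson p-value. At least 95.71% of peaks per list were solved to within 5% of the step between neighbouring pileups. Genes and promoters came from RefSeq tables of GRCm38.p6, in which all 10 genes and all 38 further genes matched by symbol, and 8 of the 10 had a promoter sequence. Overlap meant at least 1 bp. The code was tested on simulated data, which for the pileup were made with the same formula that is solved. This checks the arithmetic and not whether the formula holds for the deposited lists. Counts of genes were compared by an exact permutation test over libraries. Groups came from the sample titles. All 10 genes are named. Of the 38, the 3 highest and 3 lowest by mean fold, those in 1 E2F1 list only and those in none are named. Cdca8, Knl1 and Cdca5 were added after their values were seen. Genes and lists were chosen with earlier results of these data known. Alternatives changed the window, the score minimum, the overlap, the rank measure, the motif and the libraries. Python 3.11.15, numpy 2.4.6, pandas 2.3.3 and scipy 1.17.1 were used.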

Additional observations from a re-analysis of the deposited data

How the results depend on the processing

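Of 30 alternatives over 5 results, 27 stayed within the spread or within 1.5 times the reported count and kept their direction, and 3 did not. Some of the 27 could not have come out otherwise. A mean of 2 values cannot move beyond their SD when 1 is left out. With 0 genes in both EV lists, leaving out 1 of them cannot change the difference, nor can the replicate number as a block. Such alternatives say nothing of stability. With peaks of a score of at least 312, the difference between the E2F1 and EV means fell from 9.5 to 5.5 genes, since weaker peaks are removed by construction. Of the 8 promoters, 0 held an E2F heptamer preceded by a further T and 6 held a heptamer without its first T, which was chosen after the data were examined, against 1 for the heptamers. With the replicate number as a block, the differences of 9.5 and 32.5 genes had an exact sign-flip permutation p of 0.5, the smallest that 2 pairs allow. With 1 count per library, the lists cannot show whether equal numbers pair the samples. Without 1 library each, the differences ran from 9.0 to 10.0 and from 32.0 to 33.0 genes. The median rank by fold of the peaks listed at these genes was at 31.8% from the top, as the mean of the E2F1 lists. It was 40.7% without replicate 1 (10 peaks) and 23.0% without replicate 2 (9 peaks, as Bub1b is not listed in replicate 1). The filter at a p-value of 1e-10 and the lower solved background of EV replicate 2 limit what an absent peak shows.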
